A study of Mus musculus with 11 samples.

Results

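A set of 47 named macrophage genes was examined in obese epididymal white adipose tissue (eWAT) of mice with and without an active Mest gene. Mest is an imprinted gene that is expressed from the paternal chromosome. Members were taken by symbol from a list, and 43 of the 47 were among the 15453 genes of the per-mouse tables. The other 4, Cd52, Spi1, Il6 and Il10, were not analysed here. The study used 6 wildtype (WT) and 5 pKO mice, in which the Mest allele inherited from the father lacked exon 3. The deletion came from a germline Cre recombination and was therefore carried by all cells and not by fat cells alone. All 11 animals were C57BL/6 males of 16 weeks of age that had eaten a high fat diet since the age of 8 weeks, and each library came from 1 mouse. The comparison asks in which direction macrophage genes of each kind differed in fat without an active Mest gene. The study reported a significantly higher ratio of fat to lean mass in the sequenced WT mice than in the pKO mice. Genotype and fat mass therefore went together in these 11 mice, and the part of each was not tested.

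Macrophages are the most numerous immune cells of expanded fat, where they clear dying adipocytes and the lipid these release. Resident macrophages lie along the vessels and carry scavenger and lectin receptors. Cells recruited from blood monocytes gather around dead adipocytes, load themselves with lipid and switch on a program that the lipid sensor Trem2 helps to drive. Classical activation refers to the response to microbial products and interferon, and alternative activation to the response to interleukin-4 and related signals. The 47 genes were therefore divided into 13 general identity genes, 5 genes of leukocytes at large, 6 lipid-associated genes, 6 resident genes, 7 genes of alternative activation, 9 of classical activation, and Mrc2, a collagen-binding relative of the mannose receptor that is best known from mesenchymal cells.

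Expression was measured by serial analysis of gene expression (SAGE), which counts 1 short tag per transcript, next to the NlaIII site (CATG) nearest to its 3' end, so that levels do not scale with transcript length. On build GRCm38, 42 of the 47 genes had such a site with all 27 letters of the tag within the annotated transcript. None of these tags was the 3'-most tag of another gene. The tags of the lipid-associated genes are shown because this role had the largest median difference between genotypes among the roles of more than 1 gene. Capitals mark the NlaIII site.
Itgax (chr7:128150619-128150645, plus strand): CATGttatcctcatttctaataaagta
Trem2 (chr17:48352085-48352111, plus strand): CATGctctcccctcctccaccaagact
Gpnmb (chr6:49058116-49058142, plus strand): CATGtgtatgtaacaaattattccagg
Lgals3 (chr14:47385931-47385957, plus strand): CATGggtacaggtgcctgctcacttga
Spp1 (chr5:104440784-104440810, plus strand): CATGcaaacaccgttgtaaccaaaagc
Pla2g7 (chr17:43612023-43612049, plus strand): CATGagagagagagagagagagagcgc
All 6 lay in the 3' untranslated region. The tag of Mrc2, the single member whose values did not overlap between genotypes, was in the same region of its own transcript.
Mrc2 (chr11:105350911-105350937, plus strand): CATGgaaccactcagcacctttttcca

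Among the members, 2 pairs of neighbouring, closely related genes limit what a tag can tell apart. Lyz1 (chr10:117287797-117292868) and Lyz2 (chr10:117277331-117282321) both encode lysozyme, and Clec10a (chr11:70156197-70170834) and Mgl2 (chr11:70130329-70137550) both encode galactose-binding lectins.
Lyz1 (chr10:117287936-117287962, minus strand): CATGaggcattcaggaggactagtgag
Lyz2 (chr10:117277518-117277544, minus strand): CATGtgtcagtctgtttaacccttgag
Clec10a (chr11:70169964-70169990, plus strand): CATGaaggcagctgctattggttctct
Mgl2 (chr11:70136952-70136978, plus strand): CATGgacatatgctaggtggaggcgag
The Lyz2 tag also occurs letter for letter in the Lyz1 transcript, at the site next to the last, 209 bases from its end, whereas the tag at the last site of Lyz1 lies 166 bases from the end and has at least 11 mismatches to any stretch of Lyz2. The Clec10a tag likewise occurs at a site of Mgl2. How the authors credited a tag found in more than 1 gene is not given in the sources used here, so the values of Lyz1, Lyz2, Clec10a and Mgl2 are uncertain as measures of each gene by itself. In a further 4 members, Cd68, Itgb2, Retnla and Gpr18, the last site left fewer bases than a full tag before the annotated end (18, 12, 6 and 4 bases). Which site the tags counted for these 4 genes came from was not tested, so their levels are also uncertain. The annotated Cd52 transcript has 0 NlaIII sites.

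Libraries held between 9659740 and 14825727 tags in WT and between 11320342 and 14626803 in pKO mice. Values are given as normalized tags, the tags of a gene divided by the size factor of the library. Genotypes were compared with limma on log2(value + 1) across all 15453 genes, where a negative log2 change means lower in pKO mice. Means are given ± SD over 6 WT and 5 pKO mice. A p is unadjusted unless named as adjusted, and it was read against 0.05. An adjusted p was read against 0.1. Mest, the check of the genotype, ran from 20756 to 27897 in WT mice with a median of 26018, and stood at 1479, 793, 1978, 2275 and 1792 in pKO replicates 1 to 5. The 2 groups of mice were thus as labelled.

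At an unadjusted p of 0.05 or less, 17 of the 43 macrophage genes were lower and 0 were higher in pKO mice. Across all genes 5.35% were lower and 4.2% were higher by the same rule. The members were chosen with earlier results of these data known, and Mrc2 and Dpep2 were among the genes that the study had called in these mice. The study had also reported Gpr18 and Egr2 as higher in WT eWAT. By quantitative PCR in the cohort from which these mice came, it had reported Itgam and Itgax as lower in pKO eWAT. All of these genes are among the 17 lower members, so the count is not independent of those reports. After adjustment over all genes 0 of the 43 passed in limma, with Mrc2 nearest at 0.20, while 0.0259% of all genes passed as lower and 0.00647% as higher. The count of adjusted calls was also 0 in edgeR and was 3 in DESeq2 (Dpep2, Mrc2 and Spp1). It was 6 in limma without pKO replicate 2 (Dpep2, Gpnmb, Il1rn, Lgals3, Mrc2 and Spp1), where the count over all genes rose from 5 to 106. In DESeq2 the count over all genes was 138. The log2 change was negative in 40 members and positive in 3 (Cd163, Mgl2 and Retnla), against 50.4% negative over all genes, and its median was -0.36 against -0.0025 over all genes. Every pKO mouse was below every WT mouse in 1 member, Mrc2, a pattern held by 0.673% of all genes. No member had every pKO mouse above every WT mouse, which 0.569% of all genes did. These are whole-tissue measurements, in which fewer macrophages and less RNA per macrophage cannot be told apart.

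**Figure D1:**
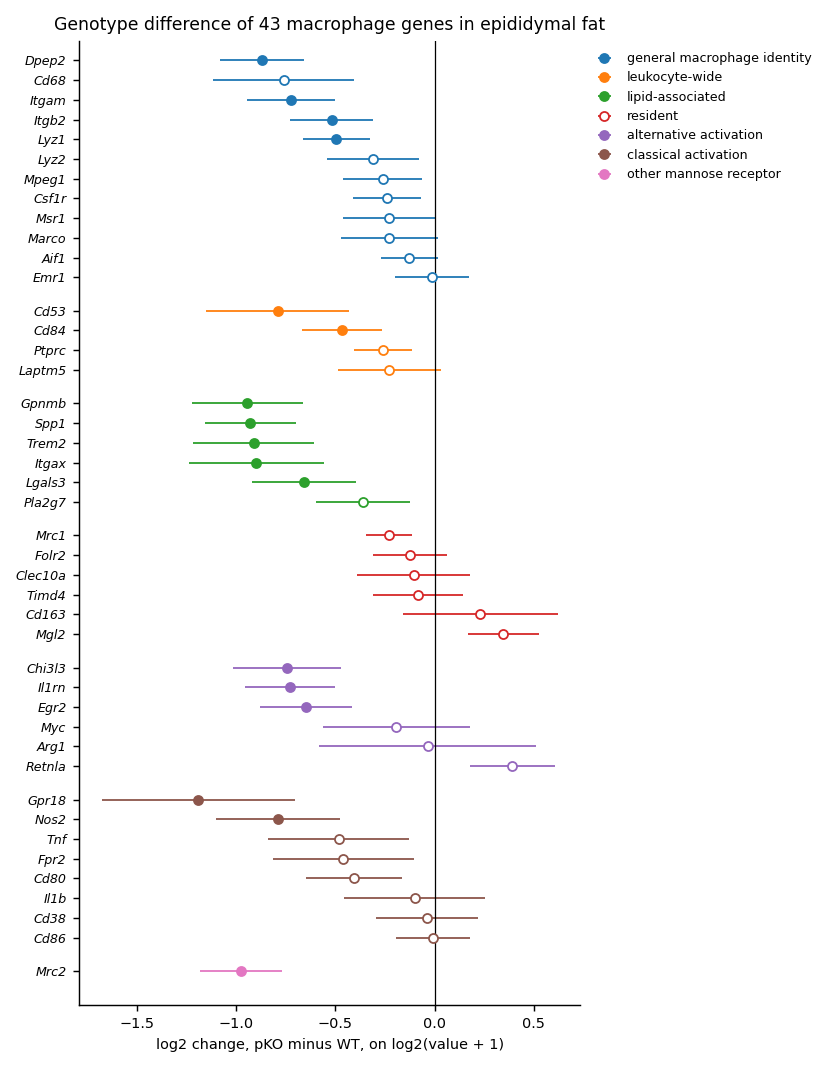
Log2 change between pKO and WT mice for each of the 43 genes, sorted within roles. Points are limma estimates with bars of 1 standard error, filled where the unadjusted p was 0.05 or less. The 17 filled points all lie left of zero, and 5 of them belong to the 6 lipid-associated genes and none to the 6 resident genes.

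Lower members were counted by role, and the median log2 change of each role was taken over its measured members. Of the lipid-associated genes 5 of 6 were lower, with a median log2 change of -0.90 and a median level of 57.0% of the WT mean. General identity genes followed with 4 of 12 measured and a median of -0.29 (83.2% of WT). The leukocyte-wide group had 2 of 4 and a median of -0.36 (78.3%). Alternative activation genes had 3 of 6 and -0.42 (70.1%), and classical activation genes had 2 of 8 and -0.43 (78.7%). Both medians depended on genes with few tags. With a mean of at least 50 in either genotype the alternative median was -0.65 over the 3 genes left (Retnla, Egr2 and Il1rn), and the classical one was -0.024 over 2 (Cd86 and Cd38). With a pseudocount of 10 the classical median was -0.28. The resident group had 0 of 6, with a median of -0.094 (95.4%), the value closest to that of all genes. No test was made of the difference between roles. When each mouse was left out in turn, the lipid-associated median stayed between -1.02 and -0.66, and the resident median between -0.16 and 0.044, where it was positive without pKO replicate 1.

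Mice varied within each genotype, and the variation ran through many genes at a time. Scored as the median over genes of the percent of each gene's WT mean, the lipid-associated role ranged from 70.5% to 118% in WT mice and stood at 31.3%, 76.1%, 46.6%, 70.0% and 65.1% in pKO replicates 1 to 5. The genotypes overlapped through pKO replicate 2 and WT replicate 5, the lowest WT mouse. The resident role ranged from 90.3% to 105% in WT and from 88.3% to 110% in pKO mice, with pKO mice on both sides of the WT range. Of the 43 genes, pKO replicate 1 was the lowest pKO mouse in 22 and pKO replicate 2 the highest in 15. WT replicate 5 was the lowest WT mouse in 21. The general identity score was 52.7% in pKO replicate 1 and 98.0% in pKO replicate 5.

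**Figure D2:**
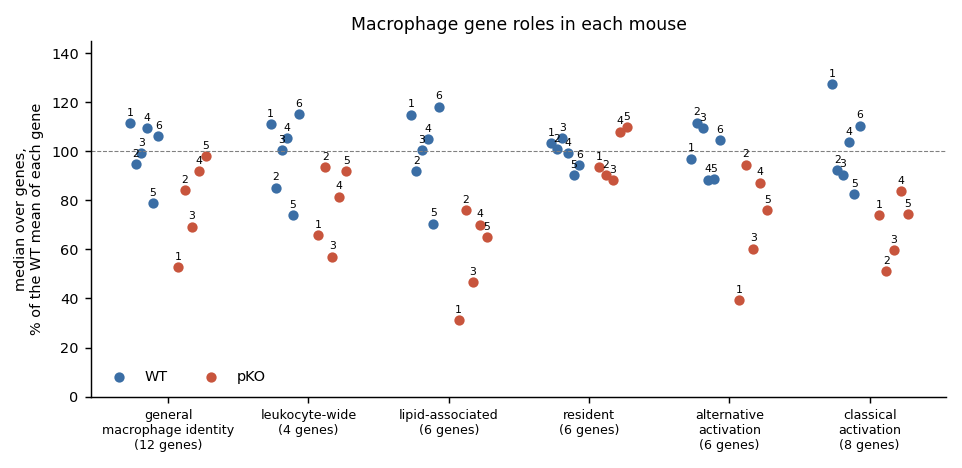
Median over the genes of each role of the level in a mouse, as a percent of the WT mean of that gene, with 1 point per mouse and its replicate number. Lipid-associated values run from 31.3% to 76.1% in pKO and from 70.5% to 118% in WT mice, while resident values overlap across their ranges.

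**Figure D3:**
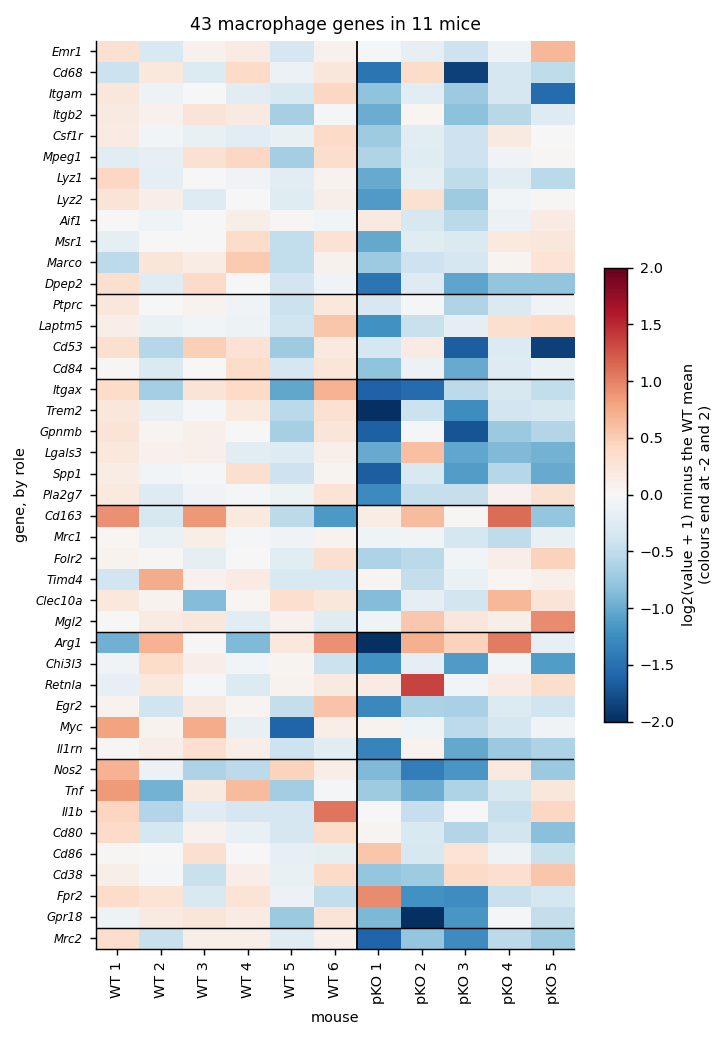
Level of each gene in each mouse as log2(value + 1) minus the WT mean of that gene, with genes by role from top to bottom and WT mice on the left. pKO replicate 1, the lowest pKO mouse in 22 of the 43 genes, shows blue cells in most roles, and the resident rows hold both colours on the pKO side.

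Among the lipid-associated genes, Itgax encodes CD11c, the integrin alpha chain that marks recruited macrophages of obese fat. Its values ran from 288 to 959 in WT mice with a median of 737, and were 192, 203, 413, 474 and 419 in pKO replicates 1 to 5. WT mice fell into 4 at 707 or more and 2 at 368 or less, and all pKO values were below the 4 higher WT mice. The means were 644 ± 260.4 in WT mice and 340.1 ± 132 in pKO mice, a log2 change of -0.90 (SE 0.34, limma p = 0.020, adjusted p = 0.44, exact permutation p = 0.054). The p of Itgax rose to 0.059 without pKO replicate 1 and to 0.058 without pKO replicate 2.

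Trem2 is the receptor that senses lipid on this cell population. Its levels ran from 406 to 734 in WT mice with a median of 624, and were 129, 437, 250.3, 454 and 475 in pKO replicates 1 to 5. Replicates 1 and 3 of the pKO mice were below every WT mouse and the other 3 were just above the lowest of them. For Trem2 this was a log2 change of -0.91 (SE 0.30, limma p = 0.0099, adjusted p = 0.39, exact permutation p = 0.011), and it kept a p of 0.05 or less in all 21 alternative settings. Without pKO replicate 1 the log2 change of Trem2 was -0.59. Gpnmb, a transmembrane glycoprotein of lipid-laden macrophages, was the most abundant gene of this role. It ran from 2270.3 to 4300.0 in WT mice with a median of 3810.4, and was 1164, 3498, 1089.8, 2150.0 and 2397 in pKO replicates 1 to 5. Only pKO replicate 2 approached the level of most WT mice, and WT replicate 5 lay well below the other WT mice. Its log2 change was -0.94 (SE 0.28, limma p = 0.0049, adjusted p = 0.37, exact permutation p = 0.017), with a p of 0.05 or less in all 21 settings.

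Spp1 encodes the secreted matrix protein osteopontin. It ran from 87.8 to 148 in WT mice with a median of 118, and was 36.9, 95.1, 53.9, 79.4 and 58.3 in pKO replicates 1 to 5. All pKO mice but replicate 2 were below all WT mice. Spp1 thus had a log2 change of -0.93 (SE 0.23, limma p = 0.0012, adjusted p = 0.28, exact permutation p = 0.0043), also with a p of 0.05 or less in all 21 settings. Lgals3 encodes galectin-3, a lectin that binds damaged lysosomes. Its values ran from 281 to 391 in WT mice with a median of 359.5, and were 168, 511, 164, 182 and 174 in pKO replicates 1 to 5. Replicate 2 was above every WT mouse and the other 4 pKO mice lay together below every WT mouse. The fitted log2 change of Lgals3 was -0.66 (SE 0.26, limma p = 0.025, adjusted p = 0.47, exact permutation p = 0.052), with a p of 0.089 in edgeR and 0.086 in DESeq2. Without pKO replicate 2 it was -0.97 with an adjusted p of 0.016, whereas without pKO replicate 1, 3, 4 or 5 the p lay between 0.057 and 0.067. Pla2g7, the lipase that degrades platelet-activating factor, was the sixth gene of the role, at 266 ± 37.4 in WT mice and 220.0 ± 85.4 in pKO mice with a log2 change of -0.36 (SE 0.24, limma p = 0.15, exact permutation p = 0.20). Its pKO values, from 109 to 327, ran past the WT range at both ends, and the p was 0.034 without pKO replicate 5.

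**Figure D4:**
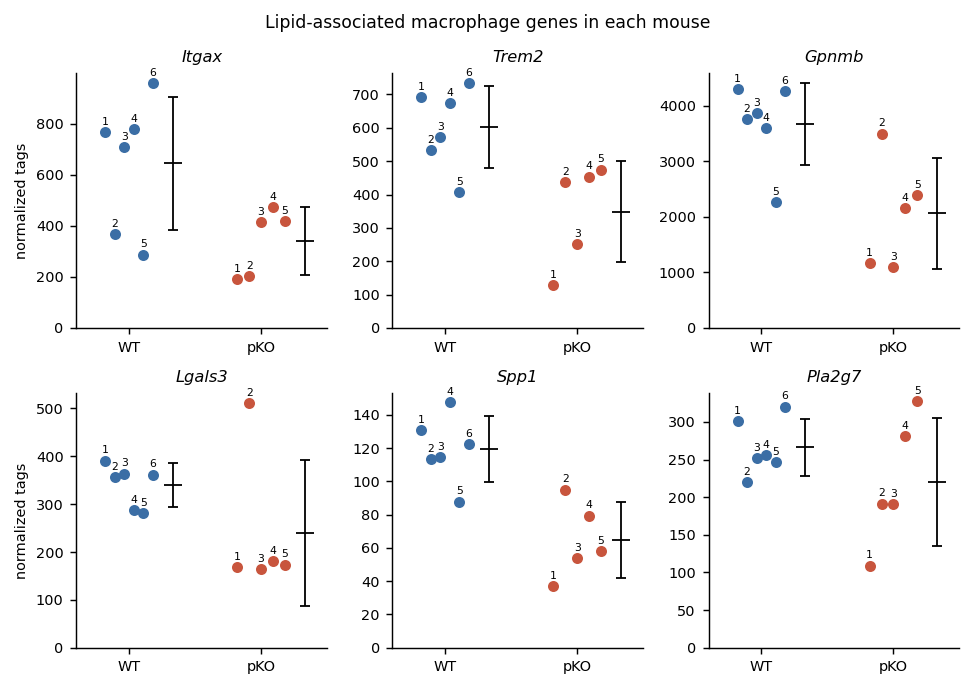
Normalized tags of the 6 lipid-associated genes in each mouse, numbered by replicate, with the mean and SD of each genotype as black bars. Lgals3 shows pKO replicate 2 at 511 above all WT mice and the other pKO mice at 182 or less, and Pla2g7 shows pKO mice on both sides of the WT range.

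Among the general identity genes, Emr1 encodes F4/80, the surface receptor by which mouse macrophages are usually counted. It ran from 669 to 1048 in WT mice with a median of 897, and was 821, 754, 631, 788 and 1333 in pKO replicates 1 to 5. The pKO mice lay around the WT values, with replicate 5 above all WT mice. Emr1 had a log2 change of -0.01 (SE 0.19, limma p = 0.95, adjusted p = 0.99, exact permutation p = 0.95) and its sign was positive in 10 of the 21 alternative settings. Cd68, a lysosomal membrane protein, had few tags, from 23.8 to 42.7 in WT mice with a median of 33.9, and 11.2, 42.4, 8.14, 25.6 and 22.5 in pKO replicates 1 to 5. Replicates 1, 3 and 5 were below all WT mice and replicate 2 was close to the highest of them. Its log2 change was -0.76 (SE 0.36, limma p = 0.051, adjusted p = 0.53, exact permutation p = 0.091), and the p was 0.044, 0.0063 and 0.043 without WT replicate 1, pKO replicate 2 and pKO replicate 4.

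Itgam (CD11b) and Itgb2 (CD18) encode the alpha and beta chains of complement receptor 3. Itgam ran from 269 to 443 in WT mice with a median of 322, and was 189.7, 285, 201, 265 and 115 in pKO replicates 1 to 5. All pKO mice but replicate 2 were below all WT mice. The log2 change of Itgam was -0.72 (SE 0.22, limma p = 0.0057, adjusted p = 0.37, exact permutation p = 0.0043), and the p was 0.05 or less in all 21 settings. Itgam and Itgax are neighbours on chromosome 7, at chr7:128062640-128118491 and chr7:128129547-128150657. Itgb2 ran from 274 to 519 in WT mice with a median of 476, and was 219, 447, 246, 296 and 363 in pKO replicates 1 to 5. The groups overlapped through WT replicate 5, which was low, and pKO replicates 2, 4 and 5. Its log2 change was -0.52 (SE 0.21, limma p = 0.027, adjusted p = 0.47, exact permutation p = 0.050), and the p lay between 0.051 and 0.075 without WT replicate 1, 3 or 4 or pKO replicate 1 or 3.

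Lyz1 was the most abundant member. Its normalized tags ran from 19078 to 29687 in WT mice with a median of 21767, and were 11066, 19389, 15748, 19058 and 15319.9 in pKO replicates 1 to 5. Replicate 2 of the pKO mice was inside the WT range, replicate 4 was just below it and the other 3 were well below. For Lyz1 the log2 change was -0.50 (SE 0.17, limma p = 0.011, adjusted p = 0.40, exact permutation p = 0.0043). Lyz2, its neighbour, was listed at 369.7 ± 53.6 in WT mice and 314 ± 116 in pKO mice, with a log2 change of -0.31 (SE 0.23, limma p = 0.20, exact permutation p = 0.29). The 2 genes share the Lyz2 tag shown above, so their split is uncertain. Dpep2 encodes a dipeptidase that acts on leukotriene D4. It ran from 183 to 312 in WT mice with a median of 232, and was 85.8, 199, 114, 138 and 138 in pKO replicates 1 to 5. Replicate 2 was again the single pKO mouse inside the WT range. The log2 change of Dpep2 was -0.87 (SE 0.21, limma p = 0.0011, adjusted p = 0.27, exact permutation p = 0.0043), with a p of 0.05 or less in all 21 settings.

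The remaining identity genes had negative log2 changes with a p above 0.05. Mpeg1 encodes perforin-2, a pore-forming protein of phagocytes. It ran from 1736 to 3703 in WT mice with a median of 2946, and was 1835, 2354, 2075, 2628 and 2806 in pKO replicates 1 to 5, all within the WT range, with a log2 change of -0.26 (SE 0.20, limma p = 0.21, exact permutation p = 0.26). The p of Mpeg1 was 0.039 without WT replicate 5. Csf1r, the receptor for the macrophage growth factor CSF1, stood at 685 ± 116 in WT mice and 587 ± 138 in pKO mice, with a log2 change of -0.24 (SE 0.17, limma p = 0.18, exact permutation p = 0.21). Aif1, the actin-binding protein Iba1, had 543 ± 27.3 in WT mice and 506 ± 106 in pKO mice, with a log2 change of -0.13 (SE 0.14, limma p = 0.39, exact permutation p = 0.37). The scavenger receptors Msr1 and Marco had log2 changes of -0.23 and -0.23, with SEs of 0.23 and 0.24.

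**Figure D5:**
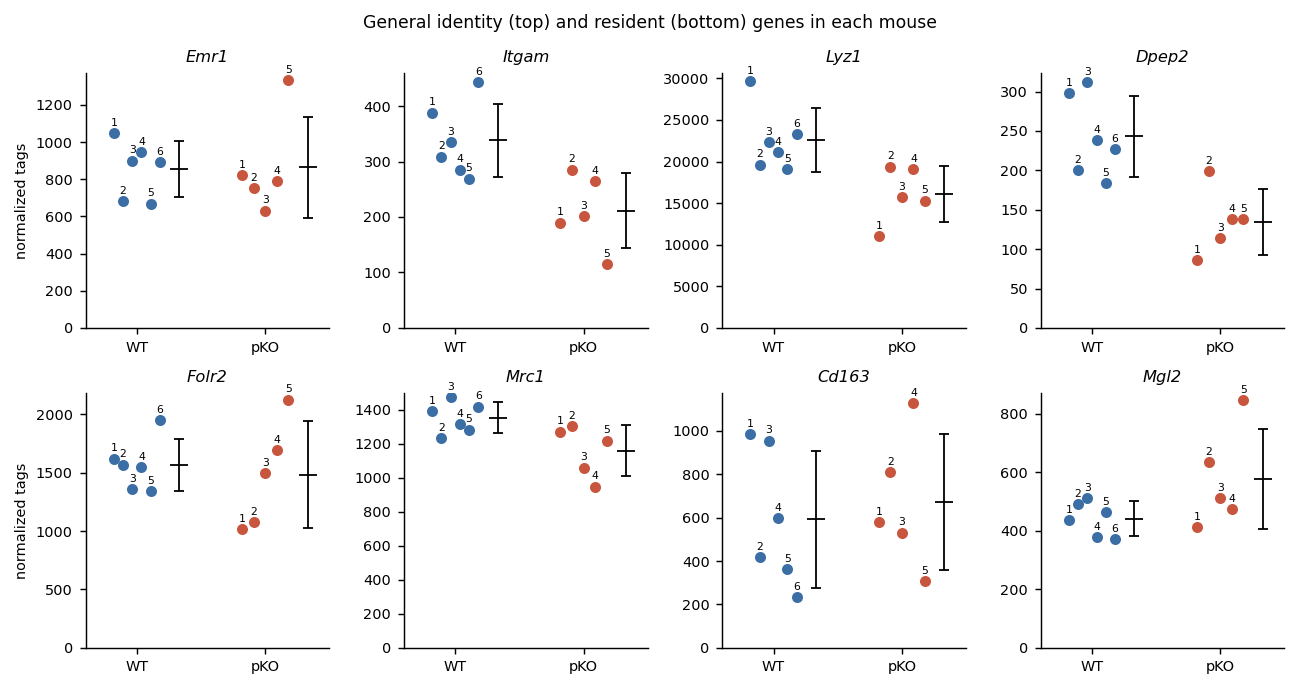
Normalized tags of 4 general identity genes (top) and 4 resident genes (bottom) in each mouse, numbered by replicate, with the mean and SD of each genotype as black bars. Itgam and Dpep2 place 4 of the 5 pKO mice below all WT mice, Emr1 has pKO replicate 5 at 1333 above them, and Mgl2 has 3 pKO mice above the WT range.

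Because Emr1 is used to count macrophages, 8 other genes were also divided by it within each mouse, as a description. Trem2 per Emr1 tag ran from 0.608 to 0.821 in WT mice and was 0.157, 0.579, 0.397, 0.576 and 0.356 in pKO replicates 1 to 5. The groups did not overlap in this ratio, but they did in each of the other ratios and in Trem2 itself. Emr1, the divisor, was low in WT replicate 5 (669) and high in pKO replicate 5 (1333). How often the ratio of other genes to Emr1 keeps the groups apart was not computed. Itgax per Emr1 was 0.731 ± 0.226 in WT and 0.415 ± 0.198 in pKO mice, and Itgam per Emr1 was 0.400 ± 0.0682 and 0.270 ± 0.116. Gpnmb per Emr1 was 4.31 ± 0.749 in WT and 2.46 ± 1.31 in pKO mice. For resident genes the ratios in WT and pKO mice were 1.87 ± 0.346 and 1.76 ± 0.485 for Folr2, and 1.61 ± 0.229 and 1.42 ± 0.347 for Mrc1. The ratio of Mgl2 was 0.535 ± 0.147 in WT and 0.678 ± 0.145 in pKO mice, and that of Cd163 was 0.676 ± 0.287 and 0.857 ± 0.447 (each ± SD over 6 and 5 mice). Replicate 5 of the pKO mice, with the most Emr1, had the lowest ratio for Itgam (0.0860), Mrc1 (0.915) and Cd163 (0.229).

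Of the leukocyte-wide genes, Cd53 encodes a tetraspanin of all white blood cells. It ran from 1013 to 2315 in WT mice with a median of 1959, and was 1307, 1869, 530.1, 1372 and 455 in pKO replicates 1 to 5. Replicates 3 and 5 were far below the WT mice and the other pKO mice were among them. Cd53 had a log2 change of -0.79 (SE 0.36, limma p = 0.046, adjusted p = 0.52, exact permutation p = 0.11), and the p lay between 0.078 and 0.14 without any one of WT replicates 1, 3, 4 and 6 and pKO replicates 3 and 5. The log2 change of Cd53 was -0.52 without pKO replicate 5. In edgeR and DESeq2 the p of Cd53 was 0.080 and 0.065. Cd84, a receptor of the SLAM family, ran from 146 to 239.9 in WT mice with a median of 186, and was 106, 169.6, 91.6, 154 and 168 in pKO replicates 1 to 5. Replicates 1 and 3 were below the WT mice. Its log2 change was -0.47 (SE 0.20, limma p = 0.036, adjusted p = 0.49, exact permutation p = 0.058), with a p between 0.053 and 0.11 without WT replicate 1, 3, 4 or 6 or pKO replicate 1 or 3. Laptm5, a lysosomal protein that limits antigen receptor levels, ran from 1471 to 2847 in WT mice with a median of 1834, and was 834, 1426, 1690.1, 2424 and 2522 in pKO replicates 1 to 5, with 2 pKO mice below the WT range and a log2 change of -0.23 (SE 0.26, limma p = 0.39, exact permutation p = 0.50). Ptprc encodes the phosphatase CD45 and stood at 865 ± 133 in WT mice and 721 ± 109 in pKO mice, with a log2 change of -0.26 (SE 0.15, limma p = 0.099, exact permutation p = 0.10). The p of Ptprc was 0.027 without WT replicate 5.

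Folr2, folate receptor beta, and Mrc1, the mannose receptor CD206, were the most abundant resident genes. Folr2 ran from 1343 to 1949 in WT mice with a median of 1559.7, and was 1017, 1074, 1498, 1695 and 2127 in pKO replicates 1 to 5, a spread that enclosed the WT range, with a log2 change of -0.12 (SE 0.19, limma p = 0.52, exact permutation p = 0.56). Mrc1 ran from 1234 to 1473 in WT mice with a median of 1357, and was 1272, 1304, 1060.3, 949 and 1219.8 in pKO replicates 1 to 5. Replicates 3, 4 and 5 lay below all WT mice, replicate 5 by a small margin. The log2 change of Mrc1 was -0.23 (SE 0.12, limma p = 0.069, adjusted p = 0.55, exact permutation p = 0.024), and the p was 0.041 without pKO replicate 1 and 0.041 without pKO replicate 2. Cd163 is the receptor that takes up hemoglobin bound to haptoglobin. It ran from 235 to 987 in WT mice with a median of 509, and was 578, 811, 531, 1129.7 and 306 in pKO replicates 1 to 5, so that mice of both genotypes spanned much the same wide range. Cd163 had a log2 change of 0.23 (SE 0.39, limma p = 0.56, adjusted p = 0.89, exact permutation p = 0.62). Timd4, a receptor for phosphatidylserine on dying cells, was at 38.6 ± 12.9 in WT mice and 35.3 ± 5.53 in pKO mice, and Clec10a was at 54.6 ± 13.6 in WT mice and 52.4 ± 21.6 in pKO mice. Mgl2 had pKO values from 411 to 846, of which 3 were above the highest WT value of 511, and a log2 change of 0.35 (SE 0.18, limma p = 0.073, adjusted p = 0.55, exact permutation p = 0.089). The p of Mgl2 was 0.020 without pKO replicate 1. Levels of Mgl2 and Clec10a are subject to the shared tag described above.

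Among the genes of alternative activation, Il1rn encodes the secreted antagonist of the interleukin-1 receptor. It ran from 160.2 to 269 in WT mice with a median of 225, and was 84.1, 225, 104, 127 and 139 in pKO replicates 1 to 5. All pKO mice but replicate 2 were below all WT mice. Il1rn had a log2 change of -0.73 (SE 0.23, limma p = 0.0065, adjusted p = 0.37, exact permutation p = 0.022), with a p of 0.05 or less in all 21 settings. Egr2 is a transcription factor induced by interleukin-4. Its values ran from 47.3 to 98.5 in WT mice with a median of 69.2, and were 26.6, 42.4, 41.7, 54.7 and 50.1 in pKO replicates 1 to 5, with 3 pKO mice below the WT range, and its log2 change was -0.65 (SE 0.23, limma p = 0.015, adjusted p = 0.43, exact permutation p = 0.022). Chi3l3, the chitinase-like protein Ym1, had few tags, from 15.4 to 27.6 in WT mice with a median of 21.3, and 8.58, 18.3, 9.16, 20.3 and 9.21 in pKO replicates 1 to 5. Replicates 1, 3 and 5 were below the WT mice. Its log2 change was -0.74 (SE 0.27, limma p = 0.017, adjusted p = 0.43, exact permutation p = 0.024), and it was -0.47 with a pseudocount of 10.

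Retnla, a secreted resistin-like protein, was the most abundant gene of alternative activation and was one of the 3 members with a positive log2 change. It ran from 1179 to 1655 in WT mice with a median of 1443, and was 1602, 3624, 1364, 1588 and 1812 in pKO replicates 1 to 5. Replicate 2 stood far above all other mice, and replicate 5 was the other pKO mouse above the WT range. For Retnla the log2 change was 0.39 (SE 0.21, limma p = 0.090, adjusted p = 0.58, exact permutation p = 0.087). The p of Retnla was 0.040 without pKO replicate 3, and the log2 change was 0.15 without pKO replicate 2. Arg1, the arginine-hydrolysing enzyme, and Myc, a growth-promoting transcription factor, had few tags. Arg1 stood at 13.1 ± 6.96 in WT mice and 14.5 ± 8.86 in pKO mice and Myc at 22.2 ± 10.8 in WT mice and 17.1 ± 2.95 in pKO mice, and their log2 changes of -0.03 and -0.19 had SEs of 0.55 and 0.37. The log2 change of Arg1 was positive in 8 of 20 alternative settings. Of the 6 genes of this role, 3 were thus lower, 0 were higher and 3 did not pass.

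Most genes of classical activation had few tags. Nos2, the inducible nitric oxide synthase, ran from 30.1 to 75.8 in WT mice with a median of 47.0, and was 24.9, 17.2, 20.4, 53.8 and 27.6 in pKO replicates 1 to 5. Replicate 4 was in the upper part of the WT range and the other 4 pKO mice were below all WT mice. Nos2 had a log2 change of -0.79 (SE 0.31, limma p = 0.024, adjusted p = 0.46, exact permutation p = 0.050), and the p lay between 0.053 and 0.068 without WT replicate 1 or 5 or pKO replicate 2 or 3. Gpr18, a G protein-coupled receptor, ran from 12.5 to 26.1 in WT mice with a median of 24.4, and was 11.2, 1.15, 9.16, 21.2 and 15.3 in pKO replicates 1 to 5. Replicate 2 stood at the value of a single tag. Gpr18 had a log2 change of -1.19 (SE 0.49, limma p = 0.029, adjusted p = 0.47, exact permutation p = 0.022). It was -0.64 without pKO replicate 2 and -0.64 with a pseudocount of 10, and the p was 0.051 without WT replicate 3 and 0.052 without WT replicate 6.

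Cd38 and Cd86 were the most abundant classical genes. Cd38, an enzyme that consumes NAD, ran from 202 to 359.6 in WT mice with a median of 285, and was 161, 168, 358, 349.5 and 407 in pKO replicates 1 to 5, with pKO mice on both sides of the WT values and a log2 change of -0.04 (SE 0.26, limma p = 0.88, exact permutation p = 0.89). Its sign turned positive in 6 of 21 alternative settings, as did that of Cd86. Cd86, a costimulator of T cells, ran from 161 to 231 in WT mice with a median of 184, and was 271, 148, 222, 171 and 135 in pKO replicates 1 to 5, again on both sides, with a log2 change of -0.01 (SE 0.19, limma p = 0.96, exact permutation p = 0.96). Cd80, the partner costimulator, was at 17.7 ± 4.29 in WT mice and 13.1 ± 3.30 in pKO mice, with a log2 change of -0.41 (SE 0.24, limma p = 0.12, exact permutation p = 0.067). The cytokine Tnf was at 16.3 ± 7.98 in WT mice and 10.7 ± 4.09 in pKO mice, and Il1b at 5.70 ± 3.36 in WT mice and 4.87 ± 1.52 in pKO mice. The log2 changes of Tnf and Il1b were -0.48 and -0.10, with SEs of 0.36 and 0.35, and neither passed. Fpr2, a receptor for formylated peptides, was at 31.1 ± 7.55 in WT mice and 25.9 ± 19.3 in pKO mice. Replicate 1 of the pKO mice had more Fpr2 than any other mouse, and the p of 0.22 became 0.010 without it.

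Mrc2 had the smallest p among the members. It ran from 234 to 410.2 in WT mice with a median of 346, and was 105, 187, 133, 222 and 196 in pKO replicates 1 to 5. Every pKO mouse was below every WT mouse. Mrc2 had a log2 change of -0.98 (SE 0.21, limma p = 0.00038, adjusted p = 0.20, exact permutation p = 0.0043), and the p was 0.05 or less in all 21 settings. Mrc1, the mannose receptor after which the family is named, had a log2 change of -0.23.

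Further genes of macrophage biology came from 4 lists that hold none of the members. Of 62 genes measured in them, 13 were lower and 3 were higher, against 5.35% and 4.2% of all genes. In limma 0 had an adjusted p of 0.1 or less, the smallest being 0.16 for Atp6v0d2. Every pKO mouse was below every WT mouse in 4 of the 62, a pattern held by 0.673% of all genes. Irf8 and Atp6v0d2 were among the genes that the study had already called in these same mice. Among 12 adaptors and kinases of myeloid receptors, 2 were lower and 1 was higher, and the log2 change was negative in 9 and positive in 3. The adaptors Tyrobp, Fcer1g and Hcst had log2 changes of 0.73, 0.079 and -0.43 (SEs 0.57, 0.29 and 0.26) that did not pass. Syk, the kinase that carries signals of Trem2 and Fc receptors, was at 399 ± 83.4 in WT mice and 261 ± 73.0 in pKO mice, with a log2 change of -0.62 (SE 0.20, limma p = 0.0074, exact permutation p = 0.019). Btk, another kinase of these receptors, had a log2 change of -0.43 (SE 0.16, limma p = 0.015, exact permutation p = 0.0065). Plcg2, the phospholipase downstream of both, was at 7.70 ± 3.33 in WT mice and 13.6 ± 5.00 in pKO mice, with a log2 change of 0.78 (SE 0.36, limma p = 0.046, exact permutation p = 0.069).

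Of 17 growth factors and lineage regulators, 3 were lower and 2 were higher, and the log2 change was negative in 9 and positive in 8. Irf8, a transcription factor that monocytes need for their development, was at 262 ± 24.2 in WT mice and 131 ± 71.8 in pKO mice, with a log2 change of -1.16 (SE 0.28, limma p = 0.0011, exact permutation p = 0.0022). Every WT mouse was above every pKO mouse in Irf8 and in Csf2rb2. Csf2rb2, a chain of the interleukin-3 receptor, had a log2 change of -0.53 (SE 0.16, limma p = 0.0058, exact permutation p = 0.0022). Mitf, a regulator of lysosomal genes and of Gpnmb, had -0.38 (SE 0.13, limma p = 0.013, exact permutation p = 0.0043). Cebpa, a regulator of both myeloid cells and adipocytes, was higher, at 23100.1 ± 2256 in WT mice and 29529.8 ± 3638 in pKO mice and a log2 change of 0.35 (SE 0.13, limma p = 0.017, exact permutation p = 0.011).

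Of 20 genes for lipid handling and lysosomes of lipid-laden macrophages, 6 were lower and 0 were higher. The log2 change was negative in 14 and positive in 6, among them Cd9 (0.27), Acp5 (0.22) and Apoe (0.12), which did not pass. Which cells of the tissue the tags of this list came from was not tested. Atp6v0d2, a proton pump subunit found in macrophages and osteoclasts, had a log2 change of -1.54 (SE 0.30, limma p = 0.00016, exact permutation p = 0.0022). Npc2, which moves cholesterol out of lysosomes, was at 8785 ± 989 in WT mice and 5475 ± 1398 in pKO mice, with a log2 change of -0.71 (SE 0.16, limma p = 0.00062, exact permutation p = 0.0022). In both genes every WT mouse was above every pKO mouse. Ctss, the protease cathepsin S, had a log2 change of -0.57 (SE 0.18, limma p = 0.0065, exact permutation p = 0.011), and Lipa, the lysosomal acid lipase, one of -0.66 (SE 0.22, limma p = 0.010, exact permutation p = 0.026). Of 13 genes of C1q and perivascular macrophages, 2 were lower and 0 were higher, and the log2 change was negative in 8 and positive in 5. Of the C1q chains, C1qa had a log2 change of 0.067 (SE 0.18) and C1qc one of -0.21 (SE 0.14), and neither passed. Differences between the chains were not tested. C1qb, a chain of complement C1q, was at 4688 ± 687 in WT mice and 3398 ± 614 in pKO mice, with a log2 change of -0.47 (SE 0.15, limma p = 0.0083, exact permutation p = 0.013), and Ms4a7 had -1.24 (SE 0.50, limma p = 0.028, exact permutation p = 0.093).

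Markers of other cell types were measured in the same libraries. None of the 6 adipocyte, 6 fibroblast, 6 T cell, 4 B cell, 5 mast cell or 5 dendritic cell markers was lower at a p of 0.05 or less, and 1 of them was higher, Pnpla2 of adipocytes. By this rule 5.35% of all genes were lower and 4.2% were higher. Summed adipocyte markers ran from 139544 to 192107 normalized tags in WT and from 139054 to 220691 in pKO mice. Of 3 mesothelial markers 2 were higher, Krt19 and Msln (exact permutation p = 0.0065 and 0.065), while Upk3b, with a log2 change of 0.26 (SE 0.30), did not pass. Their sum was 505 to 699 tags in WT against 709 to 1256 in pKO mice. Only in Krt19 was every pKO mouse above every WT mouse, a pattern held by 0.569% of all genes. In Msln and Upk3b pKO replicate 5 was below every WT mouse. Among 3 neutrophil markers S100a9 was higher, while S100a8 and Csf3r had log2 changes of -0.57 and -0.20 that did not pass. Among 3 endothelial markers Kdr was higher, while Pecam1 was at 77.0% of WT with a log2 change of -0.39 (SE 0.18, limma p = 0.051, exact permutation p = 0.076) and Cdh5 had a log2 change of 0.38 that did not pass. Of 2 red cell markers Hba-a1 was higher and Alas2, with a log2 change of 0.49, did not pass. Among dendritic markers, which share Itgax with macrophages, 0 of 5 passed. The largest log2 changes among them were -0.73 for Clec9a and 1.09 for Xcr1 (SEs 0.36 and 0.56), both with few tags. The dendritic sum ran from 186 to 281 tags in WT and from 172 to 290 in pKO mice. The 2 epididymal markers had a sum of at most 43.8 tags, and Adam7 had a median of 0. The part of these cells in the macrophage results was not tested.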

How the data were processed

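SAGE libraries of eWAT from 6 WT and 5 pKO mice were made by the authors, who aligned the tags with vendor software for SAGE, which they had modified, and named edgeR 3.2.3 and build mm10 in their processing notes. The deposited values are a normalized signal, in which the authors scaled the tag counts of each library by its size factor, as every value was a whole multiple of 1 step (tolerance 0.01, 100% of values). Whole counts were recovered by dividing by the step, of 0.836 to 1.19. How the authors treated tags found in more than 1 gene, and how they filtered to 15453 genes, is not given in the sources used here. No batch is given in the labels. The labels name mice as separate samples, and all pairs of libraries differed beyond sampling noise (chi-square per degree of freedom at least 17.8).

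Here log2(value + 1) was fitted with limma 3.58.1 in R 4.3.3 (lmFit, eBayes with a mean-variance trend) on all 15453 genes with Benjamini-Hochberg adjustment, without a filter on low values. Fold changes on this scale understate the change of genes with few tags. Single genes had an exact two-sided permutation test over the 462 splits of 11 mice, whose smallest p is 0.0022. Low counts limit precision by counting error. The members and lists were chosen with earlier results of these data known. All members are named, with every mouse for those with a p of 0.05 or less, the 2 most abundant of each role, and Emr1, Cd68, Itgax, Itgam, Cd163, Gpr18 and Egr2; up to 4 genes with the smallest p at or below 0.05 are named per further list. Alternatives were pseudocounts of 0.5 and 10, total-count scaling, a minimum mean of 50 in either genotype, TMM factors, edgeR 4.0.16, DESeq2 1.42.0 and limma-voom on recovered counts, no trend, the replicate number as a block, and each mouse left out. Fits were tested on simulated data. Tags came from GENCODE M21 transcripts on GRCm38, of which mm10 is another name, with all 47 symbols matched, 2 through RefSeq synonyms (Emr1 as Adgre1, Chi3l3 as Chil3). Python 3.11.15, pandas 2.3.3 and scipy 1.17.1 were used.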

Additional observations from a re-analysis of the deposited data

Results flagged for a closer look

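Dixon's test for a mouse that stands apart was run in 86 groups, 43 genes in each of the genotypes, and picked out 8, with 3 in WT and 5 in pKO mice, where chance gives about 1 in 20, or 4.3. Lgals3 was 511 in pKO replicate 2 against 164 to 182 in the other pKO mice. Retnla was 3624 in the same mouse against 1364 to 1812. Emr1 was 1333 in pKO replicate 5, where the others had 631 to 821. Nos2 was 53.8 in pKO replicate 4 against 17.2 to 27.6, and Fpr2 was 59.2 in pKO replicate 1 against 12.2 to 23.5.

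In WT replicate 5, Itgb2 was 274 against 428 to 519 in the other WT mice, and Gpnmb was 2270 against 3595 to 4300. WT replicate 3 had 28.4 for Clec10a, where the others had 54.4 to 66.6.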

How the results depend on the processing

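Each result was recomputed in 21 settings, 11 of which left out a mouse. Itgam, Dpep2, Trem2, Gpnmb, Spp1, Il1rn and Mrc2 had a p of 0.05 or less in 21 of 21, and Chi3l3, whose mean is under 50, in 20 of 20. Genes lower in pKO mice numbered 12 to 18 with a mouse left out, genes higher 0 to 1, and genes at an adjusted p of 0.1 or less 0 to 6, the most without pKO replicate 2, where limma called 106 of all genes after adjustment and not 5. DESeq2 gave 1 higher (Retnla) and 3 adjusted calls, and called 138 of all genes after adjustment where limma called 5. Replicate numbers did not pair the mice (correlations of same-numbered mice -0.034, 0.14, -0.062, -0.092 and -0.072), and the replicate block, which drops WT replicate 6, gave 11 lower and 1 higher (Retnla), without Cd53, Cd84, Egr2, Gpr18, Itgb2, Lyz1 and Nos2 and with Cd68. Total-count scaling gave 18 lower members and moved all genes from 827 lower and 649 higher to 1015 and 463, with a median log2 change of -0.036. Among genes with a mean of at least 50, where 32 members were left, the classical median was -0.024 and the alternative one -0.65. A pseudocount of 10 gave a classical median of -0.28. The resident median ran from -0.16 to 0.044 with a mouse left out.

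Signs turned in genes with a limma p of 0.39 or more. Arg1 became 0.048 with a pseudocount of 10, 0.15 in edgeR, 0.15 in DESeq2 and 0.15 with the replicate block. Emr1 became 0.012 in edgeR, 0.016 in DESeq2 and 0.0033 with the block, Cd38 became 0.045, 0.046 and 0.037, Cd86 became 0.025 in edgeR and 0.031 in DESeq2, and Il1b became 0.11 with the block. With a mouse left out the log2 change ran from -0.18 to 0.089 in Emr1, -0.16 to 0.064 in Timd4, -0.30 to 0.51 in Arg1, -0.15 to 0.10 in Cd86, -0.23 to 0.11 in Il1b, -0.19 to 0.14 in Cd38, -0.38 to 0.017 in Laptm5 and -0.29 to 0.088 in Clec10a. The cause was not tested. Of 473 values with a mouse left out, 410 kept their direction and side of the threshold, as did 388 of 419 in the other settings. The part of sequencing depth in the SEs of genes with few tags was not tested.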
